A study of Drosophila melanogaster with 30 samples.

Results

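The comparison described here is between Kc cells depleted of both retinoblastoma proteins of the fly, RBF1 and RBF2, and control cells. Its members are the 3 arrays labelled as RBFs knockdown and the 3 labelled as SK+ control, 6 of the 30 arrays in the series. They were read over 13966 probe sets, all those of the array except its 44 control probe sets. Of these, 7794 passed a filter on low signal, being above their own array's median on at least 3 of the 30 arrays, and were tested. A probe set weak in the control could pass through knockdown arrays alone, and could then hardly fall against the control. Each of 6393 genes was read through its brightest tested probe set.

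Retinoblastoma proteins bind E2F transcription factors and hold E2F target genes in check until a cell commits to DNA synthesis. Drosophila has an activating E2F (E2F1), a repressive E2F (E2F2) and a shared partner, Dp. RBF1 is known to bind both E2F proteins and RBF2 only E2F2. With E2F2, Dp, Myb and the MuvB proteins (Mip40, Mip120, Mip130, Lin-52) they form the dREAM complex, which is known in fly cells for silencing genes of the germ line and other differentiated cell types. The MuvB proteins with Myb are also known to activate genes of mitosis.

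All groups used Kc cells, a suspension line derived from embryos, which the labels give as tetraploid with a female karyotype. RNA interference (RNAi) ran for 4 days. The control received an unspecific RNA made from the pBSK+ plasmid and called SK+. The RBFs group received RNA against RBF1 and RBF2 together, so the effect of depleting either protein alone cannot be told apart from the other. Knockdowns of E2F2, E2F1 and Mip120, with 3 arrays each, were used for direct comparisons with the RBFs group. The E2F1 knockdown is given by the sample titles and characteristics and is missing from the series' list of depletions. All groups come from a single line. Whether replicate arrays were made from cultures grown apart is not stated in the labels, and the spread that the p-values rest on may therefore be technical. In a culture, a lower signal can mean less RNA per cell or fewer cells of a kind, and these cannot be told apart.

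The arrays held biotin-labelled cRNA made from 10 micrograms of total RNA. Array medians ran from 6.45 to 6.58 on the log2 scale over the 30 arrays. Replicates of the RBFs group correlated at 0.997 to 0.998 over all probe sets. Control replicates 1 and 2 correlated at 0.998, whereas control replicate 3 correlated with them at 0.995 and 0.996 and stood slightly apart. For many counts and calls below the result without it is given as well, but the sizes of differences from the control include it. The label of the line was checked against blood cell (hemocyte) markers: 7 of 8 had a probe set, and 5 of these (Hml, srp, ush, Pxn and Pvr) lay above the range of 23 probe sets for bacterial, yeast and mouse sequences, whose means ran from 3.13 to 6.30. NimC1 and eater, also hemocyte markers, lay within that range, which is called the background range below. Of the markers of other cell types, elav and nSyb (neurons) and Tm2 (muscle) lay in it, and brp, sls, zpg, Lsp2, Fbp1 and Yp1 lay above it in both groups. The germ line marker vas lay above it in the RBFs group only, and bam in the control only. Since markers of other types also lay above the range, this check does not single out hemocytes.

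The RNAi targets were read first. Rbf2 signal was 7.10, 7.05 and 7.14 on the RBFs arrays and 7.5, 7.58 and 7.53 on the control arrays. All 3 RBFs values lay below all 3 control values, and the transcript fell by 0.44 on the log2 scale (SE 0.06, limma adjusted p = 8.02e-07). Rbf, the gene of RBF1, read 4.76, 4.97 and 4.88 against 4.86, 4.90 and 4.98 in the control. These values overlap, lie in the background range and were not tested, so the arrays give no check of the RBF1 depletion. The positions of the probes relative to the RNA added were not given, so whether a probe set also reads that RNA was not tested.

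Transcripts of the other subunits of the complex did not pass the test. Of the 12 tested genes of the Rb, E2F and dREAM list only Rbf2 was called. E2f1 read 9.02, 9.09 and 9.09 against 8.79, 8.65 and 9.04, a difference of 0.24 (SE 0.11, adjusted p = 0.115); it was called with array weights (adjusted p = 0.00111) and without control replicate 3 (adjusted p = 0.0235). The difference was 0.07 for E2f2, 0.15 for Dp, 0.14 for mip120, 0.05 for mip130, -0.06 for mip40 and -0.03 for lin-52, with adjusted p from 0.283 to 0.846. The remaining tested genes were Caf1-55 (-0.10), HDAC1 (-0.11), Lint-1 (0.16) and l(3)mbt (0.14), of which HDAC1 was called with array weights (adjusted p = 0.043). CoRest was too weak to be tested.

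Between the RBFs and control groups many transcripts differed by small amounts and few by large ones. A probe set was called at a Benjamini-Hochberg adjusted p under 0.05 in limma's moderated test. Of the 7794 tested, 1819 (23.3%) were called, 893 higher and 926 lower. The lower calls were 583 without control replicate 1 and 1426 with array weights, and the share of higher calls, 49.1% here, ran from 42.9% without control replicate 3 to 55.2% without control replicate 1. The median size of the called differences was 0.29 on the log2 scale, and 35 of the called probe sets changed by at least 2-fold, 21 higher and 14 lower. By gene, 721 of 6393 (11.3%) were called higher and 766 (12%) lower, with a median difference of 0.00 over all genes tested. These gene percentages are the background for the lists that follow.

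**Figure D1:**
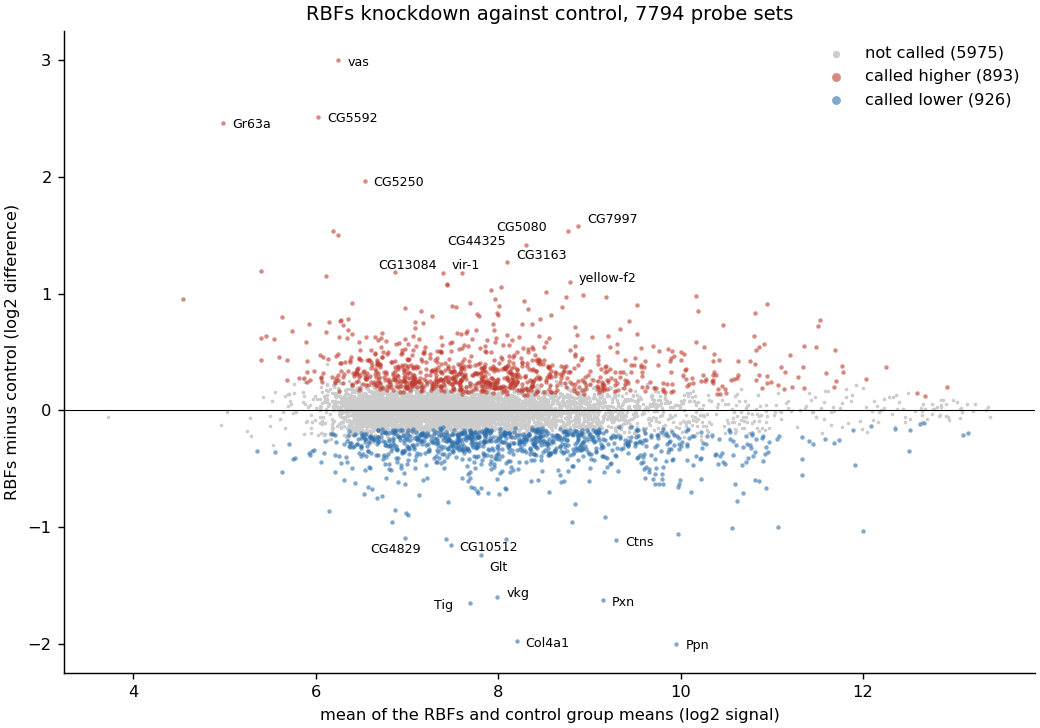
Log2 difference between the RBFs and control means (y axis) against the mean of both group means (x axis, log2 signal) for 7794 tested probe sets, with calls coloured. vas, at 3.00, is the highest point, and Ppn, at -2.0, and Col4a1, at -1.98, are the lowest.

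The largest rise was that of vas, which encodes Vasa, an RNA helicase of the germ line and of the piRNA pathway. Its signal was 8.05, 7.64 and 7.55 on the RBFs arrays and 4.85, 4.59 and 4.8 on the control arrays. The groups lay far apart, with a log2 difference of 3.00 (SE 0.13, adjusted p = 1.73e-17), or 7.99-fold. Since the control values lie in the background range, this fold is a lower bound. Over the 10 groups of the series, vas was highest in the RBFs (7.75 ± 0.27, SD, n = 3) and E2F2 knockdowns (7.72 ± 0.03), followed by Mip130 (7.54 ± 0.10) and Mip120 (7.21 ± 0.17), with Lin-52 at 6.30 ± 0.18, Mip40 at 5.59 ± 0.18 and L(3)MBT at 5.36 ± 0.06. The control (4.75 ± 0.14), Myb (4.75 ± 0.13) and E2F1 (4.21 ± 0.30) groups were lowest. The RBFs and E2F2 means do not differ beyond their spread, nor do those of the control and Myb groups.

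The other large rises were of genes with varied or unknown roles. CG5250 read 7.48, 7.51 and 7.57 against 5.31, 5.53 and 5.83, a rise of 1.97 (SE 0.11, adjusted p = 1.22e-14) from control values in the background range. CG7997 rose from 7.98, 8.13 and 8.17 to 9.76, 9.60 and 9.65, by 1.58 (SE 0.07, adjusted p = 5.17e-17). Both groups were apart on every array for each of these genes, a condition for being named. CG5080 rose by 1.54, CG3163 by 1.27 and CG13084 by 1.18. qtc (quick-to-court, known for a role in male courtship) rose by 1.09, from 6.90 ± 0.06 to 7.99 ± 0.09 (adjusted p = 3.75e-11). yellow-f2, a member of the yellow family known for its enzyme activity in melanin synthesis, rose by 1.10, from 8.24 ± 0.01 to 9.34 ± 0.07 (adjusted p = 6.36e-16), and CG2887 rose by 1.08.

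A rise was also seen for CG44325, which read 8.95, 9.12 and 8.98 against 7.56, 7.53 and 7.72. The log2 difference was 1.42 (SE 0.08, adjusted p = 4.77e-15). The transcript of vir-1, a gene known to be induced by viral infection, read 8.04, 7.98 and 7.93 against 6.76, 6.80 and 6.85, a rise of 1.18 (SE 0.14, adjusted p = 2.24e-07). Pxt, which encodes a peroxidase known for prostaglandin synthesis in the ovary, read 8.56, 8.57 and 8.56 against 7.39, 7.28 and 7.85. It rose by 1.05 (SE 0.12, adjusted p = 4.85e-08), and its spread lay almost wholly in the control group.

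Weak transcripts also rose. CG5592 read 7.37, 7.34 and 7.15 against 4.86, 4.64 and 4.81, a difference of 2.52 (SE 0.08, adjusted p = 3.97e-20). CG15130 read 6.99, 7.11 and 6.88 against 5.37, 5.55 and 5.57, a difference of 1.5 (adjusted p = 1.08e-13). Both stay below 7.46, the median of all tested values, and were chosen after their values were seen; their control values lie in the background range. Gr63a, a carbon dioxide receptor of olfactory neurons, rose by 2.46 (adjusted p = 2.89e-16), from 3.55, 3.87 and 3.84 to 6.36, 6.19 and 6.11. Both of its means lie in the background range, which is taken over 23 different probe sets, so no fold is given. Between the groups the means of those probe sets differed by -0.099 to 0.105.

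The largest falls included secreted matrix proteins: 7 of the 12 genes with the largest falls were in the hemocyte or extracellular matrix list. Those lists hold 20 and 14 of the 6393 genes tested, and they were chosen with earlier results of these data known. Ppn, which encodes the matrix protein Papilin, read 8.96, 8.96 and 8.94 on the RBFs arrays and 10.98, 11.10 and 10.78 on the control arrays. It fell by 2.00 on the log2 scale (SE 0.14, adjusted p = 1.5e-12), to 25.1% of the control. Its probe set carries a suffix for probes shared between transcripts, and a second, weaker probe set fell by 1.09 (adjusted p = 5.63e-07). Col4a1, a collagen IV chain of basement membranes, read 7.18, 7.25 and 7.21 against 9.32, 9.22 and 9.04. It fell by 1.98 (SE 0.07, adjusted p = 3.97e-20), to 25.4% of the control. The other collagen IV chain, vkg (Viking), read 7.25, 7.08 and 7.25 against 8.93, 8.84 and 8.61 and fell by 1.6 (SE 0.07, adjusted p = 5.17e-17).

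Other matrix genes fell with them. Tig, which encodes the integrin ligand Tiggrin, read 6.79, 6.99 and 6.82 against 8.59, 8.57 and 8.40 and fell by 1.65 (SE 0.10, adjusted p = 1.67e-13). Pxn, which encodes Peroxidasin, an enzyme that crosslinks collagen IV, read 8.45, 8.26 and 8.30 against 10.21, 10.03 and 9.64 and fell by 1.62 (SE 0.13, adjusted p = 1e-10). For both genes every RBFs value lay more than 1 log2 unit below every control value. SPARC, a collagen-binding protein of the matrix, read 11.56, 11.45 and 11.44 against 12.65, 12.56 and 12.33 and fell by 1.03 (adjusted p = 1.96e-09). Glt, which encodes the basement membrane protein Glutactin, fell by 1.24 (adjusted p = 9.73e-07).

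Low levels of these genes were also seen in other knockdowns. vkg was lower after Mip40 depletion (6.99 ± 0.08, SD, n = 3) than in the RBFs group (7.19 ± 0.10), with Lin-52 at 7.27 ± 0.14 and L(3)MBT at 7.36 ± 0.05. Col4a1 was lowest in the RBFs group (7.21 ± 0.04), next to Mip40 at 7.39 ± 0.05 and L(3)MBT at 7.49 ± 0.09. Tig and SPARC had their lowest means in the Mip40 group, at 6.64 ± 0.11 and 11.18 ± 0.08. Ppn means in the L(3)MBT (8.99 ± 0.12) and E2F1 (9.01 ± 0.06) groups lay just above the RBFs level (8.95 ± 0.02). Pxn was lowest in the E2F1 group (7.34 ± 0.12). The RBFs group was not tested against the Mip40, Lin-52 and L(3)MBT groups.

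**Figure D2:**
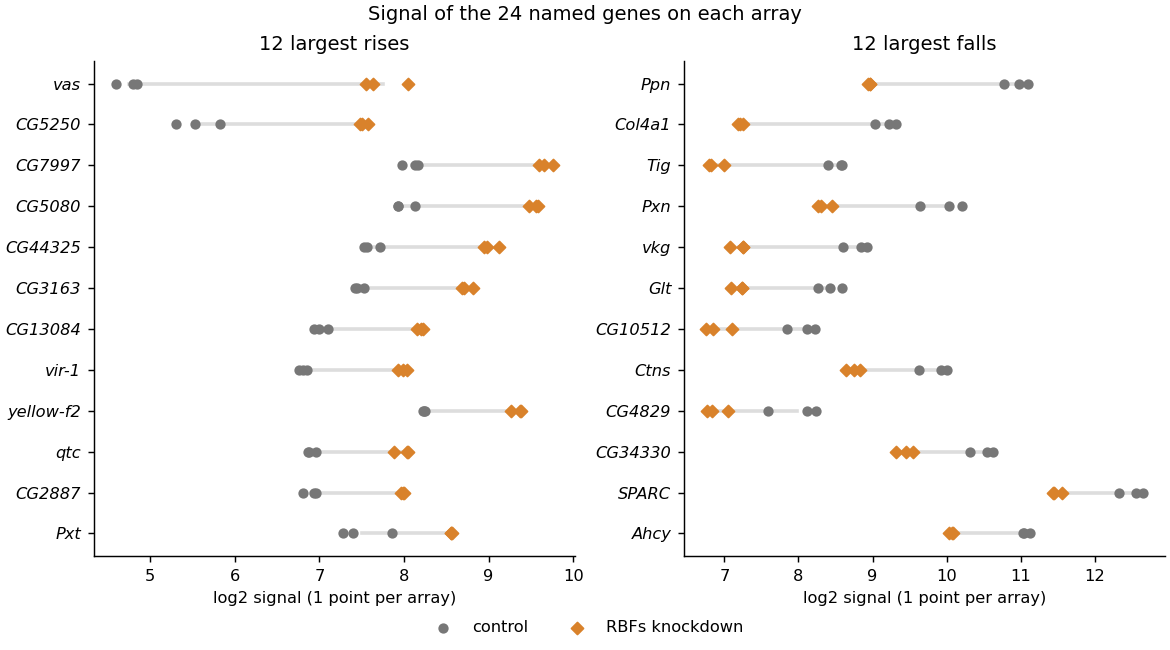
Log2 signal (x axis) of the 12 genes with the largest rises (left) and the 12 with the largest falls (right), 1 point per array, with a line joining the group means. In each gene the 3 RBFs values lie on one side of the 3 control values, a condition for being named; vas moves from 4.75 to 7.75 and Col4a1 from 9.19 to 7.21.

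The remaining 5 of the 12 falls were of other kinds. Ahcy, which breaks down S-adenosylhomocysteine after methylation reactions, fell by 1.00, from 11.07 ± 0.05 to 10.06 ± 0.03 (adjusted p = 2.01e-14). Ctns, the lysosomal cystine transporter, fell by 1.11 (adjusted p = 2.6e-07). CG10512 fell by 1.16, CG4829 by 1.10 and CG34330 by 1.06. The groups did not overlap for any of the 5, which was a condition for being named. Ahcy read 10.61 to 10.97 in the other 8 knockdown groups, so its mean was lowest in the RBFs group.

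In the hemocyte list as a whole, 8 of 20 tested genes fell and 2 rose, beside 12% lower and 11.3% higher over all genes. The median of the list was -0.09. Besides the matrix genes of this list, Hml (Hemolectin, a clotting protein and hemocyte marker) fell by 0.67 (adjusted p = 6.84e-09), while Fer1HCH, a ferritin chain that stores iron, rose by 0.59 (adjusted p = 1.77e-08). The hemocyte transcription factor srp read 8.01 ± 0.26 against 7.86 ± 0.40, with overlapping values. In the matrix and adhesion list 3 of 14 tested genes fell and 2 rose. PH4alphaEFB and Plod, enzymes that hydroxylate collagen, fell by 0.43 (adjusted p = 1.38e-07) and 0.42 (adjusted p = 5.58e-07), and Tsp42Ee, a tetraspanin, rose by 0.84 (adjusted p = 1.29e-10). With any 1 array left out 7 to 9 hemocyte genes fell; the 2 matrix rises were 1 without RBFs replicate 1 or control replicate 2.

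Among genes of the germ line and piRNA pathway, 7 of 30 tested rose and 3 fell, with a median of 0.04. Over all genes 11.3% were higher and 12% lower. The list has 44 genes with a probe set, and those that failed the filter are not counted. Weak in the control, vas (4.75) and tej (5.14) passed the filter only through knockdown groups and could hardly fall. The filter thus favours rises in this count. The rises stayed at 6 or 7 with any 1 array left out, and the falls became 5 without control replicate 3 and 6 with array weights. Gasz, a piRNA factor of the mitochondrial surface, rose by 0.87, from 6.77, 6.54 and 6.32 to 7.61, 7.46 and 7.18 (adjusted p = 2.09e-07). stau, an RNA-binding protein that localises maternal mRNA, rose by 0.54 and spn-E, a piRNA helicase, by 0.44. tej, which encodes the piRNA factor Tejas, read 5.76, 5.81 and 5.74 against 5.34, 5.13 and 4.94 (difference 0.64, adjusted p = 0.000559), with both means in the background range. bam, a differentiation factor of germ cells, fell by 0.62, to values in the background range (adjusted p = 0.00801), and lost the call without control replicate 1 (adjusted p = 0.106). No other gene of the list changed by as much as the 3.00 of vas.

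Testis and meiosis genes split evenly, with 4 of 21 tested higher and 4 lower; the falls were 2 without control replicate 1 or control replicate 2. bol, a translation factor of male meiosis, rose by 0.76 (adjusted p = 3.09e-10) and Rpt3R, a proteasome ATPase known from the testis, by 0.66 (adjusted p = 5.56e-06). RpS5b, a germ line paralogue of a ribosomal protein, fell by 0.50 (adjusted p = 0.000299). In the neuronal list 1 of 16 tested rose (Gr63a) and 3 fell, in the photoreceptor list 1 of 11 rose and 0 fell (toy, a Pax6 factor of the eye, by 0.40), and in the muscle list 1 of 13 rose (Mlc2, by 0.33) and 1 fell (0 without RBFs replicate 2). In the homeotic and patterning list 1 of 14 rose and 0 fell, and 0 rose with any 1 array left out. Beside them stand 11.3% higher and 12% lower over all genes. Gr63a, like vas, passed the filter only through knockdown groups.

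The calls in the cell cycle lists were mostly of small size. Their counts stand beside 11.3% higher and 12% lower over all genes. In the list of G1 and S phase regulators 2 of 7 tested rose and 0 fell (1 without control replicate 3). CycE, the cyclin that starts S phase, read 7.17, 7.18 and 6.85 against 6.57, 6.62 and 6.25, a rise of 0.59 (SE 0.15, adjusted p = 0.00383). Cks30A, a small partner of cyclin-dependent kinases, rose by 0.39 (adjusted p = 0.000538). Neither Cdk2 (-0.13), Cdk4 (0.03) nor CycD (0.04) passed the test.

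In the list of origin licensing and the replicative helicase 7 of 20 tested (35.0%) rose and 2 (10.0%) fell, with a median of 0.10. Over all genes 11.3% were higher and 12% lower. dup, the licensing factor Cdt1 of the fly, read 8.04, 8.03 and 8.0 against 7.65, 7.57 and 7.75 and rose by 0.37 (adjusted p = 0.00112). In the list of DNA synthesis and nucleotide supply 8 of 28 (28.6%) rose and 1 (3.57%) fell, with a median of 0.07. PolE2, a subunit of the leading-strand polymerase, rose by 0.32 (adjusted p = 0.000116), DNAlig1, the ligase that joins Okazaki fragments, by 0.28 (adjusted p = 0.000684) and Ts, thymidylate synthase, by 0.26 (adjusted p = 0.000559). RfC4, a subunit of the clamp loader, fell by 0.28 (adjusted p = 0.00226). These counts depended on single arrays: the licensing rises were 4 without RBFs replicate 2, control replicate 2 or control replicate 3, and its 2 falls were 1 without RBFs replicate 1 and 0 without RBFs replicate 2, control replicate 1 or control replicate 2. The synthesis rises were 4 without RBFs replicate 1 and 5 without RBFs replicate 3, control replicate 1 or control replicate 3, and its falls were 2 without RBFs replicate 1 and 3 without control replicate 3. With array weights, which give noisier arrays less influence, 6 synthesis genes rose and 6 fell, and with the 6 arrays alone 5 rose and 2 fell.

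Mitosis genes mostly did not pass the test: 5 of 39 (12.8%) rose and 2 (5.13%) fell, beside 11.3% and 12% of all genes. The list median was 0.03, and 4 rose and 8 fell with array weights. mars, a spindle protein, rose by 0.33 (adjusted p = 8.5e-05), and Klp61F, the kinesin that pushes spindle poles apart, fell by 0.28 (adjusted p = 0.0012). The 5 rises became 1 without RBFs replicate 1, 3 without RBFs replicate 2 or control replicate 1, and 2 without control replicate 3. The 2 falls were 1 without RBFs replicate 2, control replicate 1 or control replicate 2, and 4 without control replicate 3 or after quantile normalization. In the centrosome list 4 of 14 rose and 2 fell, among the latter Plp, a scaffold of the centrosome, by 0.28 (adjusted p = 0.000177); the rises were 2 without control replicate 3, and the falls 1 without RBFs replicate 2 or control replicate 1.

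In the DNA damage and repair list 12 of 30 tested rose and 1 fell, beside 11.3% and 12% of all genes, with a median of 0.11. FANCI, of the crosslink repair pathway, rose by 0.33 (adjusted p = 0.000663) and mre11, of the complex that processes double-strand breaks, by 0.32 (adjusted p = 0.0005). Msh6, of mismatch repair, fell by 0.36 (adjusted p = 6.54e-05). The 12 rises were 4 without RBFs replicate 1. In the list of apoptosis and JNK signalling 5 of 15 rose and 2 fell. Ask1, a stress kinase, rose by 0.48 (adjusted p = 0.000638), and egr, the fly ligand of the tumour necrosis factor family, fell by 0.44 (adjusted p = 0.000528). The 5 rises were 2 without RBFs replicate 1 and 3 without RBFs replicate 2 or any 1 control array, and the 2 falls were 1 without RBFs replicate 1, RBFs replicate 3 or control replicate 3.

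Proteasome genes fell together. Of 30 tested, 21 were lower and 2 higher, beside 12% and 11.3% of all genes, and the list median was -0.23. Rpn12, a subunit of the regulatory lid, read 9.53, 9.43 and 9.54 against 10.20, 10.16 and 9.90 and fell by 0.58 (SE 0.09, adjusted p = 1.77e-05). Prosbeta3, a subunit of the catalytic core, fell by 0.49 (adjusted p = 0.000739) and Prosbeta2, a catalytic subunit, by 0.46 (adjusted p = 1.48e-06). The 2 that rose were Rpt3R, given above, and Rpn6, a lid subunit (0.30, adjusted p = 0.0214). Leaving out any 1 array left 16 to 21 falls, and the 2 rises were 1 without RBFs replicate 2 or control replicate 2. Rpn12 also had means below its control mean of 10.08 ± 0.16 in the E2F1 (9.44 ± 0.05) and Mip120 (9.65 ± 0.05) groups, and the RBFs group did not differ from either beyond the test (0.06, adjusted p = 0.612, and -0.15, adjusted p = 0.29). Of the 30 proteasome genes 4 were higher and 3 lower in the RBFs than in the E2F1 group (median -0.03). Over all genes 27.0% were higher and 20.9% lower. Than in the Mip120 group 1 of the 30 was higher and 2 lower (median 0.03), beside 11% and 9.23% of all genes. The 4 and 3 were 2 and 5 without RBFs replicate 1, and 4 became 2 without E2F1 replicate 1 or E2F1 replicate 3; the 1 became 0 without RBFs replicate 1, RBFs replicate 3, Mip120 replicate 1 or Mip120 replicate 2.

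In the oxidative phosphorylation list 20 of 58 tested fell and 1 rose, beside 12% and 11.3% of all genes, with a median of -0.13. ND-B14.5A, a subunit of complex I, read 9.43, 9.39 and 9.41 against 10.10, 10.02 and 9.98 and fell by 0.63 (SE 0.08, adjusted p = 9.89e-07). COX5A, of cytochrome c oxidase, fell by 0.41 (adjusted p = 0.000154), and ox, a subunit of complex III, rose by 0.42 (adjusted p = 1.4e-07). The 20 falls were 7 without control replicate 1 and 12 without RBFs replicate 2, and the 1 rise was 2 without control replicate 3. Of the 58 genes, 11 (19.0%) were lower and 3 (5.17%) higher than in the E2F2 group, beside 15.4% and 9.64% of all genes. After quantile normalization 4 were lower and 7 higher. Without RBFs replicate 2, RBFs replicate 3, E2F2 replicate 2 or E2F2 replicate 3, 6 or 7 were lower. Than in the E2F1 group 11 were lower and 9 higher (6 and 20 after quantile normalization), beside 20.9% and 27.0% of all genes. Than in the Mip120 group 4 were lower (2 without RBFs replicate 2 or Mip120 replicate 3) and 3 higher, beside 9.23% and 11%. Ribosomal protein genes showed no such shift, with 2 of 34 higher, 4 lower and a median of 0.01; the rises were 4 and the falls 1 without control replicate 1, and the falls 2 without control replicate 2.

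Genes of sugar metabolism moved the other way. In the list of glycolysis and lactate 8 of 16 tested rose and 0 fell, beside 11.3% and 12% of all genes, with a median of 0.15. The largest rise was that of Pepck1, known as an enzyme of gluconeogenesis, which read 8.78, 8.78 and 8.71 against 7.67, 7.86 and 7.93 and rose by 0.94 (SE 0.07, adjusted p = 3.94e-11). Pfk, the enzyme that commits sugar to glycolysis, rose by 0.69, from 7.42 ± 0.02 to 8.10 ± 0.04 (adjusted p = 2.12e-10). Ald1 (aldolase) rose by 0.52 and Hex-A (hexokinase) by 0.37. The count of rises was 6 to 8 with any 1 array left out. Against the E2F2 group 6 were higher and 1 lower (2 without RBFs replicate 2), beside 9.64% and 15.4% of all genes. Against the Mip120 group 6 were higher and 1 lower, beside 11% and 9.23% of all genes. The 1 became 0 without RBFs replicate 1, RBFs replicate 2, Mip120 replicate 2 or Mip120 replicate 3. In the insulin and TOR list 6 of 15 rose and 1 fell. ImpL2, a secreted antagonist of insulin-like peptides, rose by 0.50 (adjusted p = 0.00245), with control replicate 3 (8.54) close to the RBFs arrays (8.55 to 8.64), and InR, the insulin receptor, fell by 0.29 (adjusted p = 0.00197). The 6 rises were 3 without RBFs replicate 2, RBFs replicate 3, control replicate 1 or control replicate 2.

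Stress genes moved in both directions. Of 27 tested in the heat shock and stress list 7 rose and 2 fell, beside 11.3% and 12% of all genes. The list median was 0.13, and with array weights 11 rose and 4 fell. GstE6, a glutathione transferase, read 9.76, 9.69 and 9.56 against 8.42, 8.44 and 9.24 and rose by 0.97 (adjusted p = 6.96e-06). Pdi and Gp93, chaperones of the endoplasmic reticulum, fell by 0.63 (adjusted p = 1.03e-06) and 0.59 (adjusted p = 5.97e-10). cnc, a regulator of the oxidative stress response, rose by 0.47 in its brightest probe set (adjusted p = 0.00275), and a second probe set of it differed by 0.05 (adjusted p = 0.817).

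Counts of the remaining lists stand beside 11.3% higher and 12% lower over all genes. In the immune list 3 of 20 rose and 4 fell, with Tep4, a thioester protein, up by 0.62 and spz, the Toll ligand, down (-0.39). The falls were 2 without RBFs replicate 2, RBFs replicate 3, control replicate 1 or control replicate 2. In the RNA interference list 3 of 14 rose and 1 fell (0 without RBFs replicate 2, RBFs replicate 3, control replicate 2 or control replicate 3), with blanks, a double-stranded RNA-binding protein, up by 0.73 (adjusted p = 2.24e-12), from 11.14 ± 0.06 to 11.87 ± 0.06. Of 14 Hippo pathway genes 4 rose and 2 fell (1 without RBFs replicate 3 or control replicate 2). kibra, an upstream activator, rose by 0.41 and mask, a cofactor of Yorkie, fell by 0.38 in its brightest probe set, while its other probe sets did not pass the test. In the chromatin list 3 of 40 rose (1 without RBFs replicate 1) and 4 fell (9 with array weights, 7 without control replicate 3 and 2 without RBFs replicate 2, RBFs replicate 3 or control replicate 2). In the fat body and gut list 1 of 22 rose and 1 fell (0 without any 1 array other than RBFs replicate 1), and in the ecdysone list 1 of 8 rose and 2 fell.

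**Figure D3:**
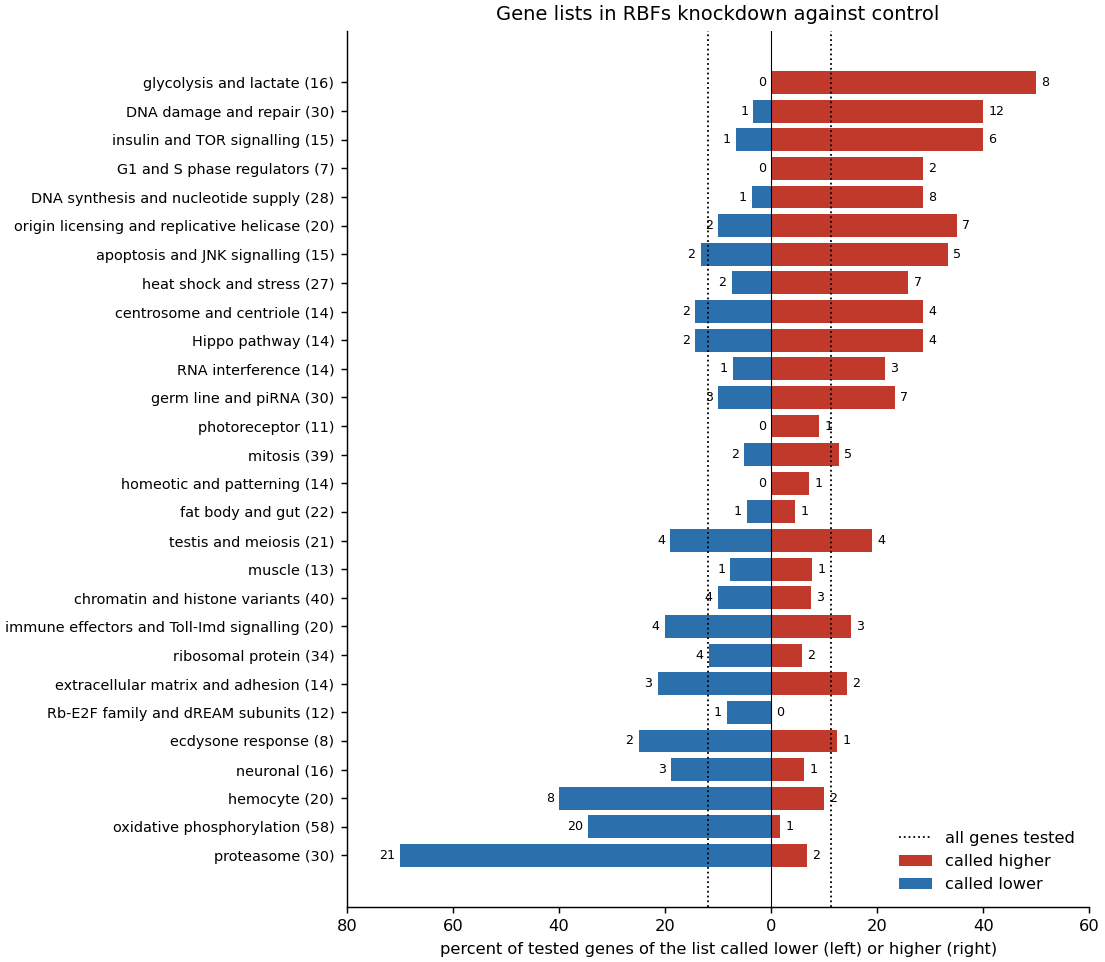
Percent of the tested genes of each list called higher (right, red) or lower (left, blue) in RBFs knockdown against control, with counts at the bar ends and list sizes in brackets. Dotted lines mark all tested genes, 11.3% higher and 12% lower; the proteasome list (21 of 30 lower) and the glycolysis list (8 of 16 higher) lie at the ends.

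The RBFs knockdown was next set directly against the E2F2 knockdown, the E2F that both RBF proteins bind; no control array enters this difference. Of 7794 probe sets 1941 (24.9%) were called and 32 of them differed by at least 2-fold. By gene, 616 (9.64%) were higher and 985 (15.4%) lower in the RBFs group. The higher calls were 38.1% of the called probe sets with the deposited values and 50.0% after quantile normalization, so the split between directions depended on the scaling. Of the 12 genes with the largest rises against the control, 7 were not called here, 4 were higher and 1 was lower in the RBFs group. The difference was 0.02 for vas (SE 0.13, adjusted p = 0.913), -0.16 for CG7997 (SE 0.07, adjusted p = 0.102), -0.04 for CG13084 (SE 0.08, adjusted p = 0.734) and -0.21 for qtc (SE 0.08, adjusted p = 0.0726). CG5592 read 7.29 ± 0.12 and 7.31 ± 0.10. A p that misses the threshold does not show that the levels were equal.

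E2f2 itself, the target of the compared RNAi, differed most, at 8.80, 8.81 and 8.65 in the RBFs group and 6.22, 6.55 and 6.17 in the E2F2 group (difference 2.44, adjusted p = 2.98e-19). CG44325 was higher in the RBFs group by 1.49 (adjusted p = 1.9e-15) and vir-1 by 1.92 (adjusted p = 1.24e-11), the latter from E2F2 values in the background range (6.28, 6.02 and 5.89). CG1572 was higher by 1.07 (adjusted p = 1.55e-11). Pxt (0.89, adjusted p = 1e-06) and yellow-f2 (0.27, adjusted p = 0.000434) were also higher, and CG5250 was lower (-0.77, adjusted p = 3.91e-06).

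The matrix genes separated both knockdowns. Pxn read 10.68, 10.59 and 10.84 in the E2F2 group, a difference of -2.37 (adjusted p = 1.61e-14). Tig differed by -2.31 (adjusted p = 5.71e-17), Ppn by -2.17 (adjusted p = 2.88e-13) and Col4a1 by -1.96 (adjusted p = 8.87e-20). All 12 genes with the largest falls against the control were called lower than in the E2F2 group; both contrasts use the same RBFs arrays, which also chose the genes. In the hemocyte list 10 of 20 tested were lower and 2 higher, with a median of -0.21, and 9 or 10 were lower with any 1 array left out; the 2 higher were 1 without RBFs replicate 3 or E2F2 replicate 1. In the matrix list 6 of 14 were lower and 1 higher (2 without E2F2 replicate 1). These counts stand beside 15.4% lower and 9.64% higher over all genes. Proteasome genes were lower in 14 of 30 and higher in 0 (1 without RBFs replicate 1), with a median of -0.17; the count was 7 after quantile normalization, 21 with array weights, 22 with the 6 arrays alone, 8 without RBFs replicate 2 or E2F2 replicate 3, and never over 14 with 1 array left out. The replication lists held few calls. Of 20 licensing genes 3 were higher (1 without RBFs replicate 1, E2F2 replicate 2 or E2F2 replicate 3, and 5 after quantile normalization), and of 28 synthesis genes 2 were higher and 1 lower (0 lower without RBFs replicate 1, RBFs replicate 3, E2F2 replicate 2 or E2F2 replicate 3), with 11 higher after quantile normalization.

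**Figure D4:**
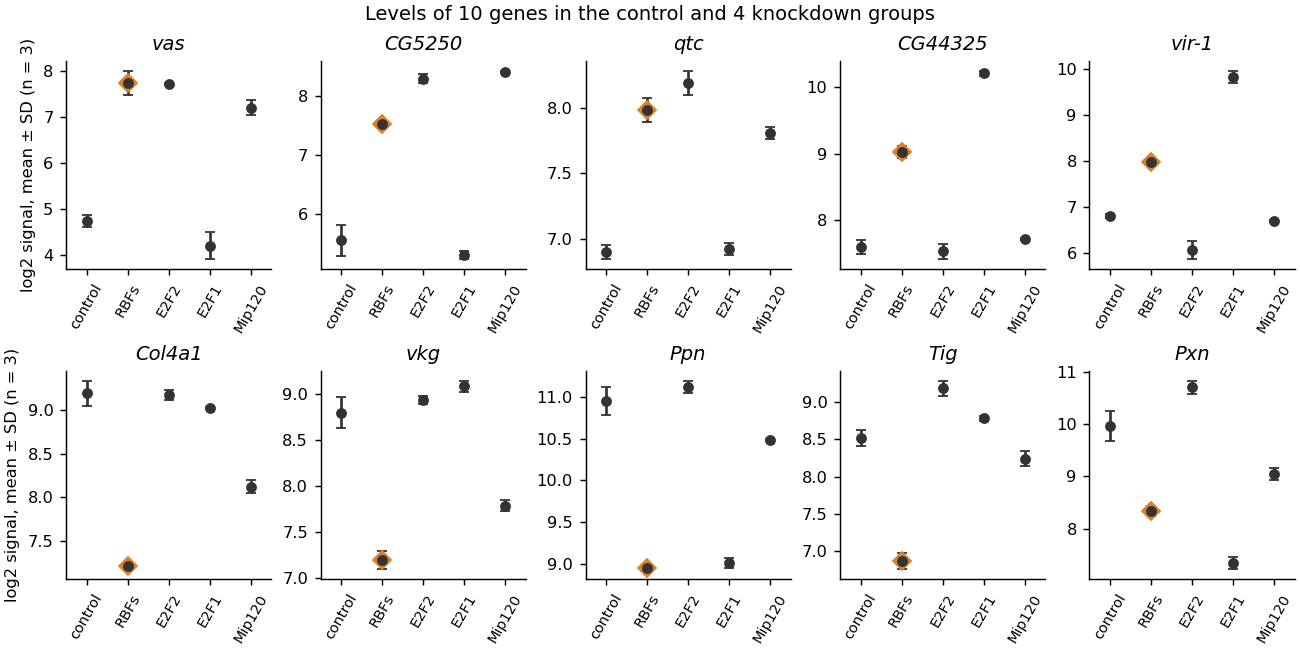
Mean log2 signal ± SD (n = 3 arrays) of 10 genes in the control, RBFs, E2F2, E2F1 and Mip120 groups, with the RBFs mean marked in orange. vas, CG5250 and qtc are raised in the RBFs, E2F2 and Mip120 groups, whereas the collagens Col4a1 and vkg are, of these 5 groups, lowest in the RBFs group (7.21 and 7.19); the y axes do not start at 0 and differ between panels.

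Set against the E2F1 knockdown, the activator that RBF1 restrains, the RBFs group differed far more widely. Of 7794 probe sets 3703 (47.5%) were called and 208 of them differed by at least 2-fold. By gene, 1723 (27.0%) were higher and 1335 (20.9%) lower in the RBFs group, with a median difference of 0.04 over all genes. All 20 tested licensing and helicase genes were higher, with a median of 0.83, and 19 or 20 were with any 1 array left out. Mcm5, a subunit of the MCM helicase, read 8.36, 8.38 and 8.27 against 6.12, 6.51 and 6.18 (difference 2.07, adjusted p = 1.42e-17), and dup differed by 2.02 (adjusted p = 8.94e-19). The E2F1 means of both lie in the background range, so these are lower bounds. Control means were 8.17 for Mcm5 and 7.66 for dup. Mcm5 did not differ between the RBFs and control groups beyond the limma test (0.17, adjusted p = 0.225).

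Beside 27.0% higher and 20.9% lower over all genes, 27 of 28 DNA synthesis genes were higher, with a median of 1.09. That count held with every array left out in turn. The largest differences of this list were those of Ts (1.76, adjusted p = 1.78e-21) and PCNA, the sliding clamp of DNA polymerases (1.75, adjusted p = 1.14e-19). Of 39 mitosis genes 37 were higher, with a median of 0.62, led by the condensin subunit glu (1.32, adjusted p = 1.15e-16) and the spindle kinesin ncd (1.17, adjusted p = 2.64e-16). Of 40 chromatin genes 28 were higher and 2 lower, and of the 12 dREAM genes 11 were higher (8 without RBFs replicate 1). Rbf2 was higher than in the E2F1 group by 0.35 (adjusted p = 5.92e-06), although it is an RNAi target in the RBFs group only.

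Other genes were lower in the RBFs than in the E2F1 group. The largest differences were those of CG6330 (-2.77), Gabat (-2.74), CG3091 (-2.63) and yellow-f (-2.55), with RBFs means of Gabat, a GABA transaminase, and CG3091 in the background range. In the order given, control means were 8.01, 5.99, 6.28 and 6.54, beside RBFs means of 9.03, 6.02, 5.91 and 6.61. CG44325 (-1.19, adjusted p = 3.8e-14) and vir-1 (-1.85, adjusted p = 2.87e-12) were higher still in the E2F1 group, at 10.20 ± 0.04 and 9.83 ± 0.13. In the matrix list 11 of 14 were lower and 1 higher, and in the hemocyte list 11 of 20 lower and 1 higher, each lower count being 11 with any 1 array left out; 2 hemocyte genes were higher without RBFs replicate 1 or E2F1 replicate 1. The hemocyte gene that was higher was Pxn (1.00, adjusted p = 2.1e-07), which read 7.34 ± 0.12 after E2F1 depletion. Ppn did not differ beyond the test (-0.06, SE 0.14, adjusted p = 0.763). In the glycolysis list 10 of 16 were lower and 2 higher (4 without RBFs replicate 1 and 1 without E2F1 replicate 3), and the largest of these differences was that of Pfk (-0.55, adjusted p = 2.62e-09). In the list of apoptosis and JNK signalling 8 of 15 were lower and 1 higher (0 without RBFs replicate 3, E2F1 replicate 2 or E2F1 replicate 3). All these counts stand beside 20.9% lower and 27.0% higher over all genes.

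The last direct comparison was with the knockdown of Mip120, a DNA-binding subunit of MuvB. Of 7794 probe sets 1592 (20.4%) were called and 51 of them differed by at least 2-fold. By gene, 704 (11%) were higher and 590 (9.23%) lower in the RBFs group. Mitosis genes were higher in 18 of 39 and lower in 1, with a median of 0.21, and 15 to 17 were higher with any 1 array left out. The largest differences of that list were those of the condensin subunit barr (0.69, adjusted p = 6.09e-09) and tum, which works in cytokinesis (0.66, adjusted p = 4.05e-09). In the licensing list 6 of 20 were higher (2 without RBFs replicate 1 or Mip120 replicate 1, and 3 without Mip120 replicate 2).

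The germ line list split evenly between RBFs and Mip120 knockdown, with 6 of 30 higher and 6 lower. vas was higher in the RBFs group by 0.53 (adjusted p = 0.00235), but tej was lower, at 5.76, 5.81 and 5.74 against 8.15, 7.95 and 8.05 (-2.28, adjusted p = 2.45e-14). tej thus lay in the background range in the RBFs group, and in the Mip120 group (8.05 ± 0.10) above it. hdm, a factor of meiotic recombination, was likewise lower (-1.78, adjusted p = 1.91e-14), as was CG14864 (-1.84, adjusted p = 6.19e-15), both with RBFs means in the background range. Their control means were 5.97 and 6.27. Pxt read 10.28 ± 0.04 in the Mip120 group (-1.72, adjusted p = 1.03e-12), far above its level in the RBFs group. CG13084 (-1.20), CG5250 (-0.90), CG2887 (-0.78) and yellow-f2 (-0.17) were lower as well, whereas CG7997, CG5080, CG3163 and qtc were not called.

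Genes higher in the RBFs than in the Mip120 group included Sdc, the matrix receptor Syndecan, at 8.14, 8.09 and 8.16 against 6.76, 6.66 and 6.56 (1.47, adjusted p = 2.17e-14), CG44325 (1.31) and vir-1 (1.28). Sdc read 8.02 ± 0.08 in the control. mip120, the target in the compared cells, differed by 1.07 (adjusted p = 8.09e-11). Of the 12 genes with the largest falls against the control, 11 were lower than in the Mip120 group, among them Ppn (-1.53, adjusted p = 3.17e-10), Tig (-1.37, adjusted p = 8.19e-12) and Col4a1 (-0.91, adjusted p = 3.93e-12). Over all genes 9.23% were lower. The same RBFs arrays chose the 12 genes, which favours this outcome. Col4a1 in the Mip120 group (8.13 ± 0.07) lay between the control (9.19 ± 0.14) and the RBFs group (7.21 ± 0.04).

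**Figure D5:**
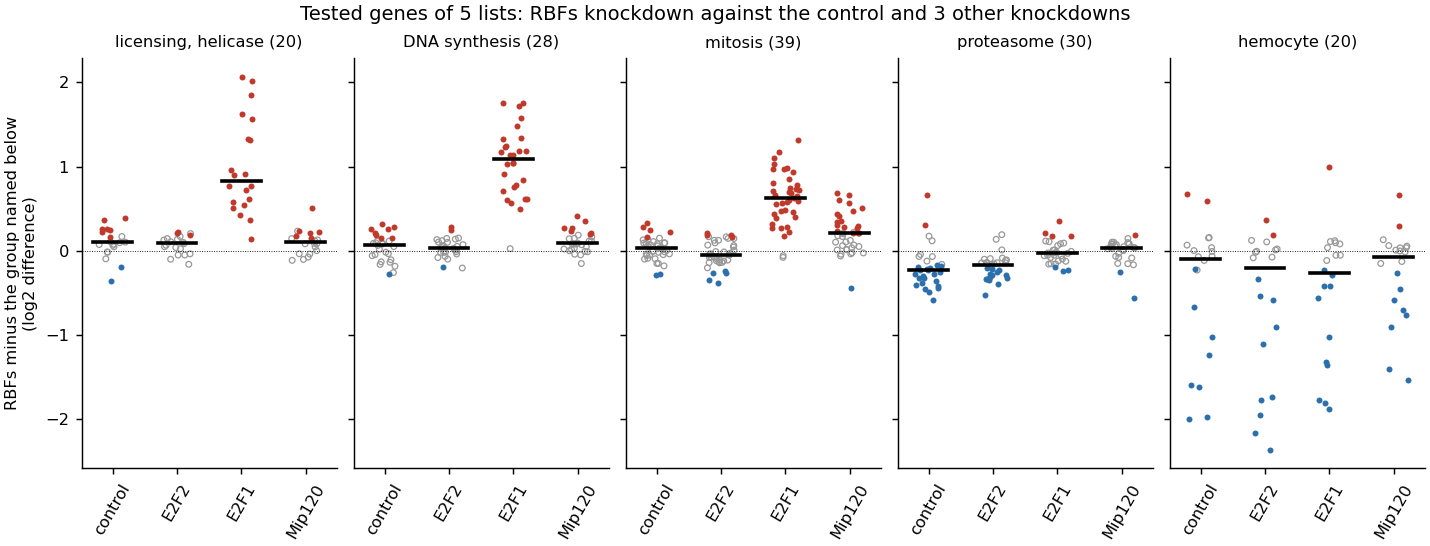
Log2 difference of the RBFs group from the control, E2F2, E2F1 and Mip120 groups for each tested gene of 5 lists (1 point per gene, jittered sideways; filled points are called, red higher and blue lower; bars are list medians). The replication and mitosis medians are highest against E2F1 (0.83, 1.09 and 0.62), and the proteasome median is lowest against the control (-0.23).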

How the data were processed

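Total RNA of 30 Kc cell samples, 3 in each of 10 groups, was measured on Affymetrix fly arrays. The authors deposited 1 value per probe set and array on what was read as a log2 scale, from its range (1.949 to 13.597); the log base, normalization and summarization are not given in the sources used here, and the submitters' processing notes name GCOS 1.2.0. Samples were grouped by title. GEO's platform annotation gives 12443 probe sets 1 gene, 327 several and 1197 none; 12393 of the genes' IDs matched the reference table (Release 6 symbols). Only probe sets of 1 gene were named.

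A linear model with 1 mean per group, over all 30 arrays and the values as deposited, was fitted with lmFit in limma 3.58.1 under R 4.3.3. Variances were moderated with a trend on signal (eBayes), leaving 20 residual degrees of freedom. P-values were two-sided and Benjamini-Hochberg adjusted per contrast over 7794 probe sets, with a threshold of 0.05. Every adjusted p in the text is from this fit or a named alternative of it. The 4 contrasts were RBFs against control, E2F2, E2F1 and Mip120. Contrasts share the RBFs arrays. No pseudocount was used. The steps were tested on simulated data. Tables and figures used Python 3.11.15, pandas 2.3.3, numpy 2.4.6 and matplotlib 3.10.9.

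The arrays compared, the 28 gene lists and the naming rule were chosen with earlier results of these data known. Named were all dREAM genes; the 12 largest called rises and falls against the control, with groups apart and the higher mean above 7.46; the 4 largest called genes of each list with at least 3 calls and all called genes of the others (some given only as counts); and the 4 largest differences each way per direct contrast. Outside this rule, the cell type markers were named as such, and Cdk2, Cdk4, CycD, stau, spn-E, Hml, Fer1HCH, srp, Rpn6, Gapdh1, eIF4A and, in the direct contrasts, Ts, PCNA, glu, ncd, barr, tum and Pfk were chosen after their values were seen. The RNA interference list also holds a splicing factor (Prp6), which is its fall. Alternatives were quantile normalization, no filter, the 6 arrays alone, array weights, a replicate block and leaving out each array. Promoter motifs were not analysed here. The number of arrays limits the precision.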

Additional observations from a re-analysis of the deposited data

Results flagged for a closer look

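The probe sets kept out of the comparison because the array uses them as its own controls hold fly genes too, and some of these differed between the RBFs and control arrays on all 6 arrays. The 3 probe sets for GAPDH, the glycolytic enzyme, were higher in all RBFs arrays than in all control arrays, by 0.542, 0.57 and 0.494 on the log2 scale. The gene probe set of Gapdh1 differed by 0.09 (limma adjusted p = 0.377). Which Gapdh gene the control probe sets read is not given in the files. The 3 probe sets for eIF-4a, a translation factor, were higher by 0.174, 0.123 and 0.126, again with no overlap; the gene probe set of eIF4A differed by 0.11 (adjusted p = 0.0543). None of these control probe sets was tested, and 1 of the 23 probe sets for sequences of other organisms also had its groups apart (a difference of 0.105). The 9 probe sets for spiked-in hybridization controls were lower on the RBFs arrays, with a median of -0.231 (from -0.606 to -0.136), and 3 of them had no overlap between groups.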

How the results depend on the processing

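Of the 111 named calls against the control, 89 passed the threshold under every alternative run (quantile normalization, no filter, the 6 arrays alone, array weights, the replicate block and each array left out), 22 lost it under at least 1, and 0 changed direction. The count of called probe sets against the control was 1819 and moved to between 1300 and 1853 with 1 array left out; with the replicate block it was 1788 and with array weights 2567. Same-numbered arrays of both groups correlated at 0.303, -0.0441 and 0.415, so the numbers were not taken as pairs, and only array 3 matched its own number best. Against the E2F2 knockdown the count of 1941 rose to 3010 with array weights and lay between 1185 and 1954 with 1 array left out (1234 without E2F2 replicate 3 and 1185 without RBFs replicate 3); the cause was not tested. Signal over background limits what can be said of genes whose lower mean lies within 3.13 to 6.30.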

Other observations

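Calls against the control were unevenly spread over the chromosomes, a pattern noticed after the data were seen and not tested. Of 3559 tested genes on chromosomes X and 2, 13.8% were higher and 9.36% lower, and of 2790 on chromosome 3, 8.03% were higher and 15.4% lower. The medians were 0.01 and -0.01 on the log2 scale. The same split appeared in the direct contrasts with E2F2 (10.5% higher and 11.9% lower on X and 2, 8.28% and 19.7% on 3) and with Mip120 (14% and 7.08%, 7.24% and 12%), but not against E2F1 (27.1% and 21.1% on X and 2, 27.0% and 20.4% on 3). All 4 contrasts share the RBFs arrays. The median of chromosome 3 genes minus that of X and 2, as deviations from the mean of all arrays, was -0.03, -0.03 and -0.04 on the RBFs arrays and 0.00 to 0.01 on the control arrays. It was not particular to the RBFs arrays: the E2F1 arrays lay at -0.03, -0.02 and -0.02 and Lin-52 replicates 2 and 3 at -0.03 and -0.04, with Lin-52 replicate 1 at 0.00. The L(3)MBT arrays lay at 0.02 to 0.03, and all others between 0.01 and 0.02.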
